A study of Mus musculus with 8 samples.

Results

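Genes of mouse chromosome 11 that averaged over 10 counts across 8 libraries were examined by position. Of the 2962 chromosome 11 genes placed with the GENCODE M21 annotation (build GRCm38), 1344 met this limit, out of 16707 genes of all chromosomes that did. Chromosome 11 was chosen by the measured log2 ratios themselves, because its genes had been found higher in the germ cell-like libraries, so its values against the other groups are a description and no test of them is used as support. At the limit, Gabrb2 was just inside with a mean count of 10.125, and Gm11993 just outside with 10.

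The libraries came from 4 groups of 2, described as biological duplicates, and whether these were separate cultures is not stated. The tcESC group is a male (XY) C57BL/6 embryonic stem cell (ESC) line that carries tesco-cfp, a cyan fluorescent reporter driven by a Sox9 enhancer that marks Sertoli cells. The tc;Sf1ESC group is 1 G418-selected clone of that line, which expresses Sf1 (the gene Nr5a1) constitutively from a transgene. The SCLC group, Sertoli cell-like cells, held the CFP-positive cells sorted at day 12 of differentiation from tc;Sf1ESCs. The todPGCLC group, testicular organoid-derived primordial germ cell-like cells, was sorted at day 6 from organoids in which epiblast-like cells of another line (XY;Prdm1-gfp) grew together with tc;Sf1ESC-derived testicular cells. Reporter GFP and a surface antigen (given as CD49f in one place and as SSEA1 in another) defined the sort. Germ cell-like identity, organoid culture and the parental line therefore change together between todPGCLC and the other 3 groups, and their parts cannot be told apart.

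Mouse chromosome 11 is rich in genes. It carries the HoxB cluster, the type I keratin cluster, Trp53 and Brca1, many genes for protein synthesis that nearly every cell uses, and several genes of the germ line. The median over many neighbouring genes is little moved by any single regulated gene, so it describes a stretch of chromosome, while the distance of one gene from that median describes the gene. Primordial germ cells, the founders of sperm and eggs, switch on regulators such as Prdm1 and Tfap2c and share much of the pluripotency network with ESCs.

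A pair of neighbourhoods with germ line genes serves to show what the values below refer to. Rad51c, a recombination repair gene, and Tex14, a gene needed for the bridges between germ cells, are transcribed away from each other from starts that lie 111 bases apart, or 559 bases for the other annotated Rad51c start. Tex19.1 and its paralog Tex19.2, both expressed in germ cells, are likewise divergent, with 27466 bases between their starts. The stretches below (RefSeq, GRCm38.p6) run from 250 bases before to 50 after each start and are written along the strand of the gene, with CG dinucleotides in capitals. They are chr11:87404905-87405204 (minus strand, Rad51c), chr11:87404815-87405114 (plus strand, Tex14), chr11:121145893-121146192 (plus strand, Tex19.1) and chr11:121118628-121118927 (minus strand, Tex19.2).
Rad51c: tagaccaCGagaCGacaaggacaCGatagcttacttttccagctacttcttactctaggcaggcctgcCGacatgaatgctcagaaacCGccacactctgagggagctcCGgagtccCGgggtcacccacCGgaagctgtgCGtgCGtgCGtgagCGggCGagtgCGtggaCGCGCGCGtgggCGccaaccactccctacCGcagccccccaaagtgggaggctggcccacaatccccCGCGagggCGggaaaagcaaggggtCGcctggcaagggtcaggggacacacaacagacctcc
Tex14: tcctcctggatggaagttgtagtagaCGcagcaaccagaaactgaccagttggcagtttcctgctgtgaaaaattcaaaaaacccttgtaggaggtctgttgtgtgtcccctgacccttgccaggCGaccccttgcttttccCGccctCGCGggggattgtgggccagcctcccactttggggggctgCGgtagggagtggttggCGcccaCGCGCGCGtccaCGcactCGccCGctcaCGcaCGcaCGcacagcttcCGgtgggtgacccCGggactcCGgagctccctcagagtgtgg
Tex19.1: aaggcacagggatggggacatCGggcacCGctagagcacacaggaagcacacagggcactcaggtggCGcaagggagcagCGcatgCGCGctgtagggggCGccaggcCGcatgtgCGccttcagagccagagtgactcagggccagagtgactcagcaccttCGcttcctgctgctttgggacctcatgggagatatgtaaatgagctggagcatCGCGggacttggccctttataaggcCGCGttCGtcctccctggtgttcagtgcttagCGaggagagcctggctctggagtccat
Tex19.2: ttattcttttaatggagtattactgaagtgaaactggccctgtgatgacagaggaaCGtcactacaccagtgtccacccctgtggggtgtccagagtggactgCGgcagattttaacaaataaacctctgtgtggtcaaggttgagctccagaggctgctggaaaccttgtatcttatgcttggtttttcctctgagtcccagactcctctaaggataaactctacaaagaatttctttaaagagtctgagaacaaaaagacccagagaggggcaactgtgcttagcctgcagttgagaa
The Rad51c and Tex14 stretches overlap and hold 24 and 20 CG dinucleotides, and that of Tex19.1 holds 16. The Tex19.2 stretch holds 2. Of the 32841 promoters of this length in the RefSeq table, 20%, 26.5%, 33% and 85.9% respectively hold at least as many.

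Each library held 25411033 to 30680191 counts on genes, so that 3 counts, taken as the smallest measurable level, were 0.0978 to 0.118 CPM, the usual unit of counts relative to the library total. This floor covers counting error only. Germ cell markers (8 genes) summed to 1047 and 1052 CPM in the todPGCLC libraries against 412 to 560 CPM in the other 6, although not for every marker. Nanos3, at 2.18 and 4.10 CPM, and Kit, at 262 and 258 CPM, were below their tc;Sf1ESC levels (9.10 and 9.07, and 278 and 276 CPM). Dazl, at 194 and 105 CPM, overlapped with tcESC at 171 and 192 CPM. ESC markers (6 genes) summed to 2576 and 2533 CPM in todPGCLC and to 727 and 518 CPM in SCLC. In the tcESC and tc;Sf1ESC libraries these sums ran from 3121 to 3651 CPM. In todPGCLC, Sox2 and Zfp42 were above every tcESC and tc;Sf1ESC library, and Pou5f1, Nanog, Klf4 and Esrrb were below all of them. Sertoli and gonadal somatic markers (7 genes) summed to 20.8 and 24.5 CPM in todPGCLC against 480 and 518 CPM in SCLC. Gata4 alone made up 415 and 431 CPM of the SCLC sums. Wt1 went the other way, at 12.1 and 11 CPM in todPGCLC against 2.26 and 0.791 CPM in SCLC. In the SCLC libraries Amh was at 0.377 and 0.756 CPM and Dhh at 0.189 and 0.0344 CPM. Visceral endoderm markers (6 genes) summed to 507 and 858 CPM in SCLC and to 12.5 and 9.34 CPM in todPGCLC. In bulk RNA, fewer cells of a type and less RNA per cell cannot be told apart. The todPGCLC libraries went against their XY label in one respect: of 7 Y-linked genes above the count limit, 6 were lower in both of them than in any other library, and Gm47283 overlapped. The Y-linked gene Ddx3y had 25 and 25 counts there, against 411 and 493 in tcESC, 2089 and 2164 in its clone tc;Sf1ESC, and 1297 and 1246 in SCLC, and Kdm5d had 7 and 3 against 41 to 228 in the other 6 libraries. Since both todPGCLC libraries are alike in this, no todPGCLC value below can be given without them.

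The question behind the comparison was whether chromosome 11 as a whole, or stretches or single genes of it, set todPGCLC apart from each other group. Chromosome 11 took 12.4% of all counts in both todPGCLC libraries, against 9.08 to 9.22% in the other 6 libraries. Without the 10 chromosome 11 genes of highest count, which include Npm1 and Sparc, the share was 10.8% in both todPGCLC libraries and 7.47 to 8.11% in the others. The ranges did not overlap. For each gene, the log2 ratio of CPM between 2 groups (prior count 2) was taken minus the median ratio of all 16707 genes, which was 0.10 against tcESC, 0.10 against tc;Sf1ESC and 0.15 against SCLC. On this scale the median chromosome 11 gene stood at 0.48 against tcESC, 0.46 against tc;Sf1ESC and 0.51 against SCLC, that is at 1.39, 1.37 and 1.42 times the all-gene level.

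Replicates hardly differed in these medians. Across the 4 pairings of a todPGCLC library with a library of the other group, the median ran from 0.46 to 0.48 against tcESC (SD 0.0077), from 0.46 to 0.47 against tc;Sf1ESC (SD 0.0057) and from 0.49 to 0.52 against SCLC (SD 0.0148). The shift was spread over the genes. Against tcESC 1020 of the 1344 genes (75.9%) were above 0, against tc;Sf1ESC 999 (74.3%) and against SCLC 919 (68.4%), where genes off chromosome 11 gave 47.7%, 47.9% and 48.4%. In all 3 comparisons 643 genes (47.8%) were above 0 and 98 (7.29%) below, against 21.8% and 25.5% of the genes elsewhere. The 3 comparisons share the todPGCLC libraries, so they are not independent of each other.

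**Figure D1:**
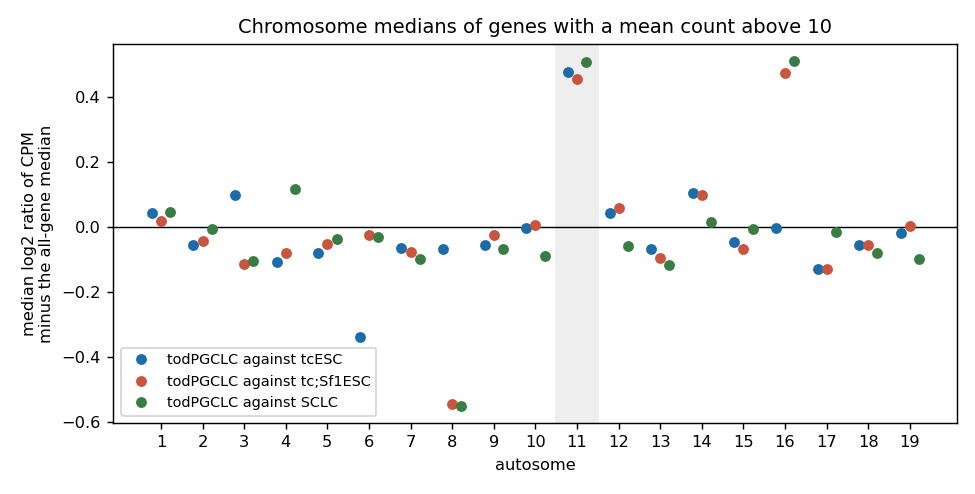
Median log2 ratio of CPM, minus the all-gene median, of the genes of each autosome (x axis) for todPGCLC against tcESC, tc;Sf1ESC and SCLC. Chromosome 11 (grey band) lies at 0.48, 0.46 and 0.51 in the 3 comparisons, and chromosome 16 lies beside it against tc;Sf1ESC and SCLC but at -0.00 against tcESC.

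Among the 19 autosomes, chromosome 11 had the highest median against tcESC and the next to highest against tc;Sf1ESC and SCLC. Chromosome 16 stood above it there, at 0.47 and 0.51, but at -0.00 against tcESC. Chromosome 8 was lowest in the same 2 comparisons, at -0.55 in each. Against tcESC the next highest autosome was chromosome 14, at 0.11, and the lowest was chromosome 6, at -0.34. As the plot of chromosome medians shows, no other autosome was among the highest 2 in all 3 comparisons. The chromosome 8 and 16 values went with a difference between the ESC groups, where chromosome 8 stood at 0.46 and chromosome 16 at -0.45 in tc;Sf1ESC against tcESC.

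No such displacement was seen among the other groups. The chromosome 11 median was -0.03 for tc;Sf1ESC against tcESC, -0.07 for SCLC against tcESC and -0.01 for SCLC against tc;Sf1ESC, with SDs over library pairs of 0.0035, 0.0161 and 0.0130. In these comparisons 47.4%, 47.3% and 49.9% of its genes were above 0. Chromosome 11 held the 16th, 15th and 13th highest median of the 19 autosomes.

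The chromosome was divided into 13 windows of 10 Mb by gene start. All 13 window medians were above 0 in each of the 3 comparisons. Against tcESC they ran from 0.00 in window 2 (10 to 20 Mb, 22 genes) to 0.60 in window 1 (0 to 10 Mb, 100 genes). Against tc;Sf1ESC they ran from 0.21, again in window 2, to 0.63 in window 9 (80 to 90 Mb, 116 genes). Against SCLC they ran from 0.41 in window 8 (70 to 80 Mb, 177 genes) to 0.67 in window 4 (30 to 40 Mb, 35 genes).

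**Figure D2:**
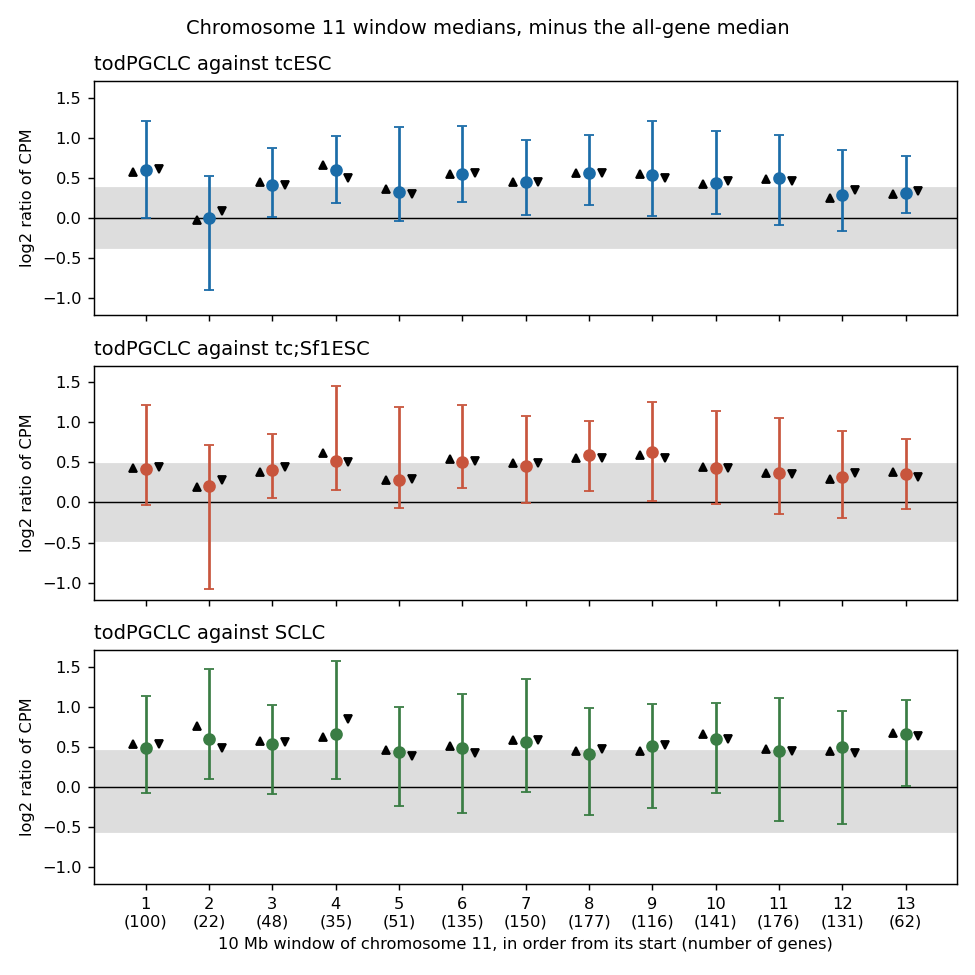
Median log2 ratio of CPM, minus the all-gene median, in the 13 windows of chromosome 11 (dots, bars from the lower to the upper quartile of genes), with the medians of todPGCLC replicate 1 (upward triangles) and replicate 2 (downward triangles) and, in grey, the range from the 5th to the 95th percentile of 210 windows of other autosomes. All 13 medians are above 0 in each panel, and window 2, with 22 genes, is the lowest against both ESC groups.

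Window 2 was the lowest of the 13 windows against both ESC groups. Its 2 todPGCLC libraries gave -0.03 and 0.09 against tcESC, on either side of 0, and 11 of its 22 genes (50%) were above 0. Against SCLC the same window stood at 0.59, with 18 of 22 genes (81.8%) above 0. The genes of window 2 were lower in SCLC than in tcESC (median -0.48) and lower in SCLC than in tc;Sf1ESC (median -0.66), the lowest of the 13 windows in both. In the remaining 12 windows the lowest and highest medians were 0.28 and 0.60 against tcESC, both todPGCLC libraries were above 0, and at least 66.4% of genes were above 0. The SD of the 13 medians was 0.167 against tcESC, 0.120 against tc;Sf1ESC and 0.082 against SCLC.

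Windows of other autosomes with at least 20 genes (210 windows) had medians centred on -0.01, -0.01 and -0.02 in the 3 comparisons. Of these, 4 (1.90%), 13 (6.19%) and 8 (3.81%) were above the middle one of the 13 chromosome 11 windows. With 5 Mb windows, 24 of 25 medians were above 0 against tcESC and all 25 against each of the others. The exception was 10 to 15 Mb (7 genes), at -0.02. The stretch from 40 to 45 Mb (16 genes) was also close to 0 against tcESC and tc;Sf1ESC, at 0.07 and 0.07. Of its genes, 50% and 56.25% were above 0 there, and its median was 0.95 against SCLC. Running medians over 51 consecutive genes were above 0 at 1294 of 1294 positions against tcESC, 1293 against tc;Sf1ESC and 1283 against SCLC. The lowest run against SCLC, at -0.17, was centred on Hsd17b1, a steroid dehydrogenase gene, in window 11.

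Genes that varied little outside todPGCLC were also described, with the same ratios that chose the chromosome. For 290 chromosome 11 genes the means of tcESC, tc;Sf1ESC and SCLC lay within 0.5 on the log2 scale, which by itself brings their 3 todPGCLC ratios close together. In todPGCLC their median stood at 0.43 against tcESC, 0.42 against tc;Sf1ESC and 0.47 against SCLC, with 82.1%, 80.7% and 80.7% of them above 0. The 3283 genes of this kind elsewhere had medians of -0.09, -0.10 and -0.12, and 41.9%, 41.7% and 40.8% were above 0. The spread of the chromosome 11 genes (SD 0.60, 0.62 and 0.62) was somewhat below that of the others (SD 0.78, 0.79 and 0.78).

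**Figure D3:**
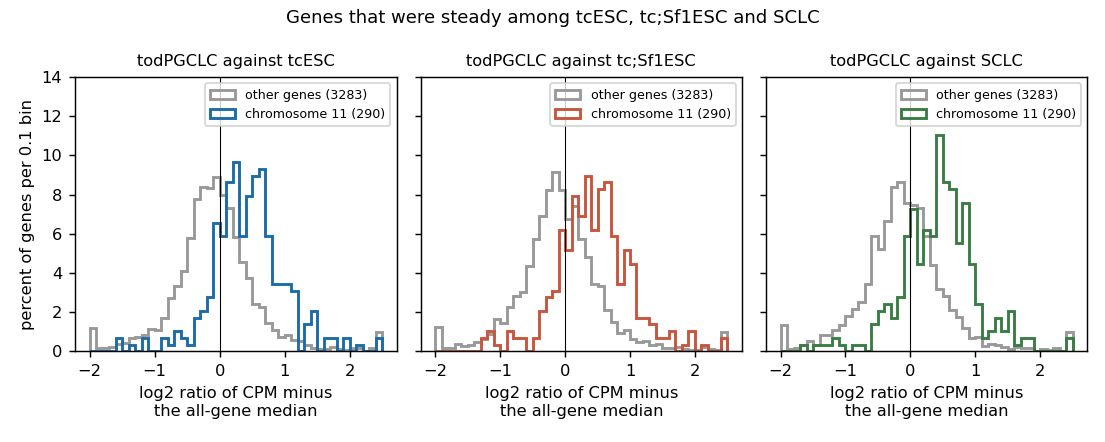
Percent of genes per 0.1 bin of the log2 ratio of CPM, minus the all-gene median, for the 290 chromosome 11 genes (coloured) and 3283 other genes (grey) whose means in tcESC, tc;Sf1ESC and SCLC lay within 0.5; values beyond the axis are placed in the end bins. The chromosome 11 distribution lies to the right of the grey one, with medians of 0.43, 0.42 and 0.47 against -0.09, -0.10 and -0.12.

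The same ratios were also split by strand, type, level and length of the genes, as a description that the choice of the chromosome largely fixes. The median shift was present on the plus strand (672 genes; 0.47, 0.46 and 0.49 in the 3 comparisons) and on the minus strand (672 genes; 0.48, 0.44 and 0.52). It was present among the 1177 protein-coding genes (0.51, 0.51 and 0.51). In the 97 long non-coding RNAs it was 0.23, 0.19 and 0.49, and genes of that kind elsewhere stood at -0.23, -0.29 and -0.16. The 55 pseudogenes gave 0.05, -0.01 and 0.32, against -0.13, -0.20 and 0.15 elsewhere. The most highly expressed of 3 classes by mean CPM (506 genes) stood at 0.34, 0.39 and 0.57, and the same class elsewhere at -0.17, -0.15 and -0.00. The least expressed class (426 genes) stood at 0.66, 0.66 and 0.49, against 0.22, 0.19 and -0.00. Longer genes had larger values, 0.58, 0.65 and 0.57 in the longest class (345 genes) against 0.38, 0.32 and 0.48 in the shortest (517 genes), as did the longest genes elsewhere (0.11, 0.17 and 0.03).

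Single genes were also called, with a fold change over 2 and an adjusted p under 0.05 (edgeR quasi-likelihood test, Benjamini-Hochberg over all 16707 genes). Against tcESC 362 chromosome 11 genes were called higher in todPGCLC, where the background over all genes was 18.1%, and 70 lower (background 11.2%). Against tc;Sf1ESC 361 were called higher (background 19.4%) and 82 lower (background 13.3%). Against SCLC 391 were called higher (background 18.5%) and 150 lower (background 19.5%). These calls use the values that chose the chromosome, so nothing is read from them. In 619 genes both todPGCLC libraries lay above the other 6 libraries (background 22.1%), and in 46 genes both lay below (background 12.6%).

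The comparisons among the other 3 groups, which the choice did not use directly, were tested, although a chromosome chosen as high against all 3 groups is favoured to be level among them. Between tc;Sf1ESC and tcESC, 83 chromosome 11 genes (6.18%, background 6.13%) were higher in tc;Sf1ESC and 79 (5.88%, background 5.85%) lower by edgeR's quasi-likelihood test. Between SCLC and tcESC, 321 (23.9%, background 24.4%) were higher in SCLC and 239 (17.8%, background 18.2%) lower. Between SCLC and tc;Sf1ESC, 317 (23.6%, background 24.2%) were higher in SCLC and 239 (17.8%, background 18.0%) lower. Each share was close to its background.

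Single genes were then set against this level. The departure of a gene is its log2 ratio minus the median of its window. In each comparison the genes of a window therefore lie evenly on both sides by construction. In all 3 comparisons 298 genes departed upwards and 295 downwards, and 751 departed to different sides. In 54 genes the smallest of the 3 departures was above 1 upwards, and in 37 it was above 1 downwards. In each window the most extreme gene on each side was named, where its mean was at least 1 CPM and both todPGCLC libraries lay outside the range of the other 6. This gave 13 genes upwards and 11 downwards, as windows 2 and 4 had no gene that met these terms on the lower side.

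Of the genes that departed upwards, Dock2 (chr11:34226815-34783892, minus strand, window 4), which encodes a Rac activator known from blood cells, had the largest value of the smallest of its 3 departures. It had 6 and 2 counts in tcESC, 1 and 2 in tc;Sf1ESC, 3 and 0 in SCLC, and 272 and 203 in todPGCLC. Its departures were 4.71, 5.49 and 5.42 against tcESC, tc;Sf1ESC and SCLC. Btbd17 (chr11:114791217-114795945, minus strand, window 12) had 0 and 3, 2 and 0, and 8 and 1 counts in the 3 other groups and 135 and 310 in todPGCLC. The todPGCLC replicates of Btbd17 thus differed by more than the level of any other library, and its departures were 5.71, 5.78 and 4.61. Departures of genes this close to the floor depend on the prior count. Dock2, Btbd17, Lhx1, Fat2 and Slc4a1 averaged at most 10 counts over the other 6 libraries, so that they met the count limit only through todPGCLC and no test of them is given.

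Tex19.2 (chr11:121116215-121118677, minus strand, window 13), whose promoter is shown above, had 24 and 24 counts in tcESC, 19 and 10 in tc;Sf1ESC and 40 and 17 in SCLC. In todPGCLC it had 593 and 448 counts, far above every other library, and departed by 3.94, 4.56 and 3.42. The counting set aside reads that did not align uniquely, 20.5 to 27.5% of a library. Reads shared with Tex19.1 would be among them, which makes both levels uncertain. Myh3 (chr11:67078300-67102291, plus strand, window 7), a muscle myosin heavy chain of the embryo, had 28 and 41, 17 and 8, and 13 and 20 counts in the 3 other groups. In todPGCLC it had 473 and 354 counts and departed by 3.01, 4.34 and 3.83.

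Lhx1 (chr11:84518284-84525535, minus strand, window 9), a homeobox factor of the early embryo and the kidney, had 1 and 1 counts in tcESC, 0 and 2 in tc;Sf1ESC and 13 and 28 in SCLC. Its todPGCLC libraries had 135 and 447 counts, a wide gap between replicates, and it departed by 5.76, 5.76 and 2.92. Fat2 (chr11:55250609-55336564, minus strand, window 6), an atypical cadherin of epithelia, had 27 and 23 counts in tcESC, 1 and 0 in tc;Sf1ESC and 4 and 1 in SCLC. It had 456 and 194 in todPGCLC, departing by 2.87, 6.33 and 5.53, and among the other groups its counts were highest in tcESC.

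Slc4a1 (chr11:102348824-102366203, minus strand, window 11), the anion exchanger of red cells, had 6 and 10, 1 and 3, and 11 and 2 counts in the 3 other groups and 92 and 114 in todPGCLC. It departed by 2.86, 4.30 and 3.27. The other genes of this direction were Pkd1l1, Grb10, Gm12031 (a lincRNA), Cyfip2, Rph3al and Stac2, with smallest departures from 1.08 (Cyfip2) to 2.15 (Pkd1l1). Cyfip2, a regulator of actin assembly, was abundant throughout, at 11.8 and 12.6 CPM in tcESC, 7.98 and 8.31 in tc;Sf1ESC, 20.3 and 21.6 in SCLC and 69.2 and 64.3 in todPGCLC. Replicates of Cyfip2 were close together in every group. Its lack of overlap between todPGCLC and the other groups was a condition for being named.

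Downward, the processed pseudogene Gm11560 (chr11:99932162-99933109, plus strand, window 10) went farthest. It had 642 and 816 counts in tcESC, 591 and 641 in tc;Sf1ESC, 291 and 294 in SCLC, and 17 and 20 in todPGCLC, with departures of -5.65, -5.45 and -4.57. It was also lower in SCLC than in tcESC (log2 fold change -1.24 ± 0.11 SE, adjusted p = 1.2e-05, edgeR). The lincRNA Platr13 (chr11:41218837-41221096, plus strand, window 5), whose name comes from its link with pluripotency, had 278 and 345 counts in tcESC, 532 and 574 in tc;Sf1ESC and 267 and 267 in SCLC. In todPGCLC it had 25 and 10 counts and departed by -4.50, -5.34 and -4.45. The transcribed pseudogene 2210409E12Rik (chr11:88972657-88973002, plus strand, window 9) had 327 and 455, 304 and 310, and 173 and 222 counts in the 3 other groups. It had 37 and 18 in todPGCLC and departed by -4.39, -4.21 and -3.45. A pseudogene can share reads with its parent gene, so the levels of Gm11560 and 2210409E12Rik are uncertain.

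**Figure D4:**
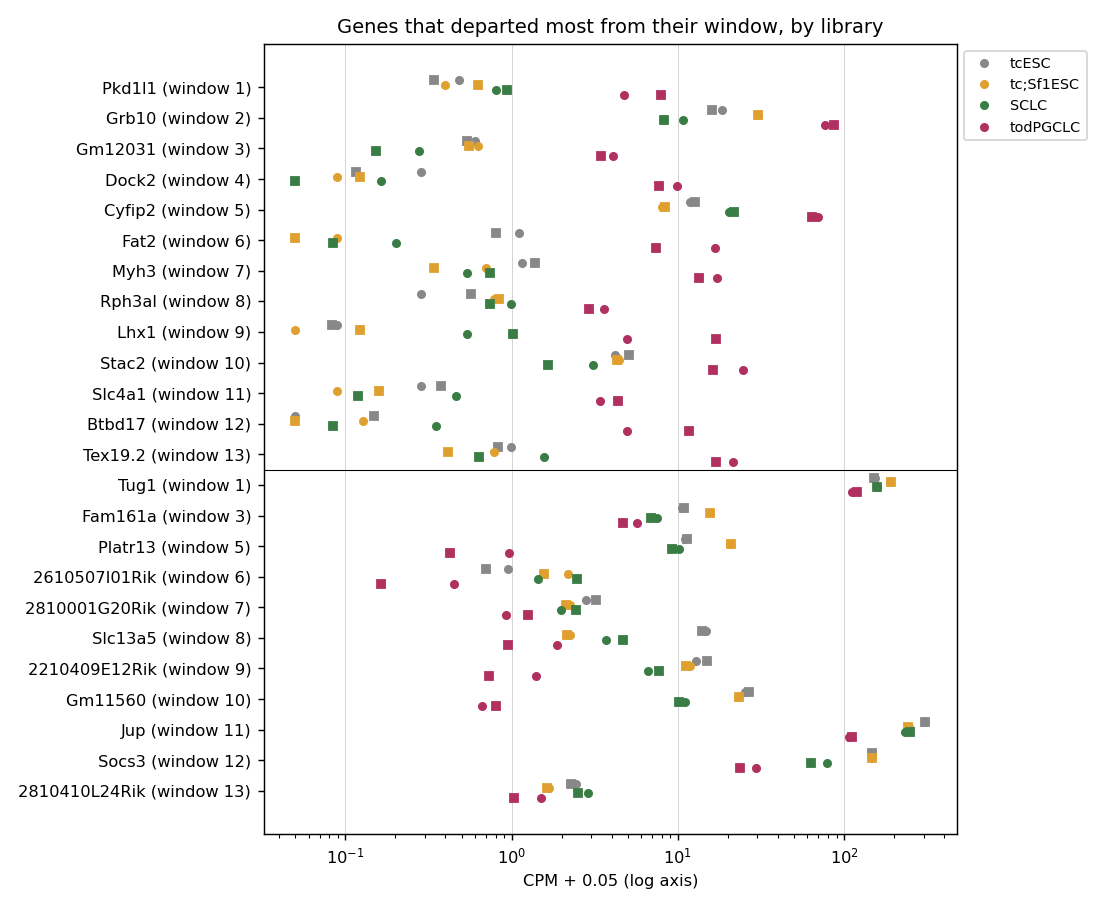
CPM plus 0.05 on a log axis for the named gene of each window that departed most upwards (13 genes, above the line) or most downwards (11 genes, below it), with window numbers. Circles are replicate 1, squares replicate 2 and colours the 4 groups. Dock2 and Btbd17 are near the floor in every library but those of todPGCLC, while Jup and Socs3 are abundant genes that are lowest in todPGCLC.

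The other genes of this direction were Tug1, Fam161a, 2610507I01Rik, 2810001G20Rik, Slc13a5, Jup, Socs3 and 2810410L24Rik. Jup, which encodes the junction protein plakoglobin, had 307 and 306 CPM in tcESC, 245 and 241 in tc;Sf1ESC, 231 and 248 in SCLC and 107 and 111 in todPGCLC. The departures of Jup were -2.09, -1.62 and -1.74. Socs3, the feedback inhibitor of LIF and STAT3 signalling, had 146 and 147 CPM in tcESC, 147 and 147 in tc;Sf1ESC, 79.3 and 62.8 in SCLC and 29.4 and 23.6 in todPGCLC. Its departures were -2.86, -2.89 and -2.06. Tug1, an abundant long non-coding RNA, departed by -1.11, -1.23 and -1.09, and 2810410L24Rik by -1.33, -0.86 and -1.90.

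Gene lists of chromosome 11 were then described by function. In lists with genes near the count limit, a median over the members that met it favours genes high in 1 group and is a description only. Genes that nearly all cells use, for the ribosome, the proteasome, translation, splicing, the cytoskeleton, mitochondria and other functions, were all above the count limit (32 of 32). Their median was 0.35 against tcESC, 0.35 against tc;Sf1ESC and 0.75 against SCLC, with 24, 27 and 31 genes above 0, beside chromosome medians of 0.48, 0.46 and 0.51. Rpl26, a ribosomal protein gene, had 163 and 163 CPM in tcESC, 179 and 186 in tc;Sf1ESC, 179 and 138 in SCLC and 605 and 591 in todPGCLC. Skp1a, of the SCF ubiquitin ligase, had 302 and 331, 357 and 363, and 263 and 228 CPM in the 3 other groups and 723 and 748 in todPGCLC. Other members lay on the other side, as Vdac1, a mitochondrial channel gene, had 858 and 866 CPM in tcESC and 648 and 558 in todPGCLC. Between the other groups, 7 of the 32 were lower and 0 higher in SCLC than in tcESC, and 6 were lower than in tc;Sf1ESC. The shares of all genes called lower in these comparisons were 18.2% and 18.0%, and the shares called higher were 24.4% and 24.2%, where the list had 0 in both. The members lower in both were Psmb3, Psmc5, Srsf1, Srsf2, Vdac1 and Atp5g1. For Atp5g1, an ATP synthase subunit, SCLC against tcESC gave -1.45 ± 0.13 SE (log2 fold change, adjusted p = 9e-06, edgeR). No member was called between tc;Sf1ESC and tcESC, beside 6.13% of all genes higher and 5.85% lower.

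Genes of cell division and DNA repair (20 of 20 above the limit) had medians of 0.27, 0.31 and 0.67, with 16, 16 and 18 above 0. Rad51c, whose promoter is shown above, went farthest against tcESC, with 9.48 and 11.2 CPM in tcESC, 16 and 15.9 in tc;Sf1ESC, 20.3 and 12.4 in SCLC and 68.1 and 72.2 in todPGCLC. Its divergent neighbour Tex14 had 31.5 and 29.7, 21.4 and 23.6, and 34.5 and 12.5 CPM in the 3 other groups and 87.4 and 80.2 in todPGCLC. Both genes were thus highest in todPGCLC without overlap, as were 46.1% of the chromosome 11 genes and 22.1% of all genes. Their log2 ratios were 2.66, 2.03 and 1.99 for Rad51c and 1.35, 1.80 and 1.85 for Tex14. Top2a, the topoisomerase of mitosis, Brca1 and Brip1 were each above 0 in all 3 comparisons, whereas Tk1, which makes thymidine phosphate, was below 0 in all 3 (-0.96, -0.78 and -0.19). Between SCLC and tcESC, Trp53, Rpa1 and Cdk12 were lower in SCLC and Ppm1d, a phosphatase that restrains p53, was higher, where 18.2% of all genes were lower and 24.4% higher. Trp53 had 362 and 348 CPM in tcESC, 372 and 368 in tc;Sf1ESC, 83.5 and 60.0 in SCLC and 457 and 474 in todPGCLC (SCLC against tcESC log2 fold change -2.25 ± 0.13 SE, adjusted p = 7.6e-07, edgeR).

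Of 10 germ line genes listed, 5 passed the limit (Tex14, Tex19.1, Tex19.2, Hsf5 and Gdf9), with medians of 1.35, 1.80 and 1.85 beside the chromosome medians given above. Spata22 was not analysed here, and Hils1, Spaca3, Spem1 and Odf4, genes of the last stages of sperm formation, were at most at 0.943 CPM in any library. Tex19.1 had 135 and 141 CPM in tcESC, 45.7 and 46.6 in tc;Sf1ESC, 40.6 and 52.2 in SCLC and 192 and 191 in todPGCLC. It fell between tcESC and tc;Sf1ESC (log2 fold change -1.56 ± 0.11 SE, adjusted p = 3.5e-05, edgeR). Hsf5 fell in the same comparison, where 5.85% of all genes fell, and the other 3 were not called in it. Gdf9, a growth factor of the oocyte, was highest in SCLC, at 3.32 and 4.02 CPM.

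The 4 imprinted genes did not move together. Grb10, an inhibitor of growth factor signalling, had 18.3 and 16 CPM in tcESC, 30.1 and 30.1 in tc;Sf1ESC, 10.7 and 8.25 in SCLC and 77.0 and 87.0 in todPGCLC, and was the gene of window 2 that departed most upwards. Its neighbour Ddc, a decarboxylase of neurotransmitter synthesis, had 62.8 and 65.3, 45.8 and 46.9, and 4.34 and 5.74 CPM in the 3 other groups and 22.5 and 21.5 in todPGCLC. Ddc fell in SCLC against tcESC (log2 fold change -3.60 ± 0.13 SE, adjusted p = 5.3e-08, edgeR). Zrsr1 was below 0 in all 3 comparisons (-0.86, -0.37 and -0.44), and Commd1, which contains Zrsr1 in its span, was at 0.01, 0.27 and 0.49.

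Among genes of LIF, STAT and receptor signalling (16 of 16), 9, 10 and 6 were above 0, with medians of 0.05, 0.32 and -0.39. Stat3, the transcription factor downstream of LIF, had 181 and 173 CPM in tcESC, 148 and 149 in tc;Sf1ESC, 169 and 191 in SCLC and 74.7 and 73.0 in todPGCLC. Stat3 and Socs3 were both lowest in todPGCLC, below 0 in all 3 comparisons (Stat3 -1.36, -1.10 and -1.43). Osm, a cytokine of the LIF family, was higher in tc;Sf1ESC than in tcESC (log2 fold change 2.49 ± 0.21 SE, adjusted p = 9e-05, edgeR), at 30.7 and 30 against 5.55 and 5.35 CPM. It was the one member called there, beside 6.13% of all genes higher and 5.85% lower. In SCLC 4 members were higher (Stat5b, Grb7, Prkca and Thra) and 2 lower (Osm and Map2k6) than in tcESC, beside 24.4% and 18.2% of all genes.

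Of 8 Wnt pathway genes, 7 passed. Fzd2, a Wnt receptor, had 3.35 and 3.72 CPM in tcESC, 4.67 and 5.56 in tc;Sf1ESC, 20.9 and 13.3 in SCLC and 37.9 and 55.5 in todPGCLC. Axin2, a feedback inhibitor and target of the pathway, had 73.6 and 69.8, 150 and 151, and 10.9 and 13.2 CPM in the 3 other groups and 37.2 and 41.6 in todPGCLC. Axin2 rose in tc;Sf1ESC against tcESC (log2 fold change 1.08 ± 0.09 SE, adjusted p = 9.9e-05) and fell in SCLC against tcESC (-2.51 ± 0.11 SE, adjusted p = 1.3e-07, edgeR). In SCLC against tcESC Wnt9a and Fzd2 were higher and Axin2 and Tcf7 lower, beside 24.4% and 18.2% of all genes. Wnt3a was also lower, but it would not meet the count limit without tcESC or without tc;Sf1ESC. No count over the list is therefore drawn. The medians of the 7 were 1.01, 0.73 and 1.31 in the todPGCLC comparisons.

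All 4 genes for proteins that bind Igf or Igf2 mRNA passed, with medians of 1.41, 1.95 and 0.63. Igfbp1, also one of the visceral endoderm markers above, had no count in any ESC library, 2993 and 2646 in SCLC and 1 and 6 in todPGCLC, and met the count limit only through SCLC. Against a floor of 3 counts per library, it was at least 945-fold higher in SCLC than in tcESC, given as a value without a test. Igfbp4 had 4.92 and 5.80 CPM in tcESC, 0.810 and 0.361 in tc;Sf1ESC, 38.6 and 23.8 in SCLC and 54.5 and 44.7 in todPGCLC. It fell in tc;Sf1ESC and rose in SCLC against tcESC (log2 fold changes -3.19 ± 0.40 and 2.59 ± 0.26 SE, adjusted p = 0.00056 and 2.3e-05, edgeR). Igf2bp1, an RNA-binding protein abundant in embryos, was at 0.05 and 0.12 against the ESC groups, under the chromosome median.

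**Figure D5:**
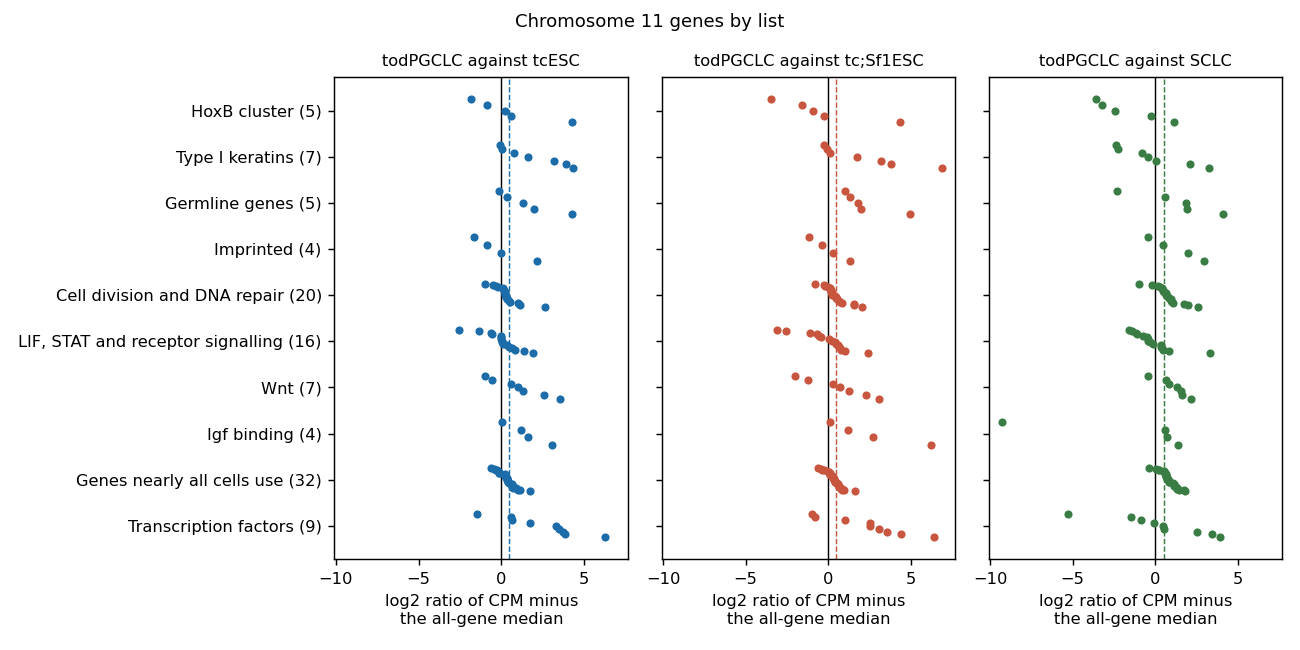
Log2 ratio of CPM, minus the all-gene median, of each chromosome 11 gene above the count limit (dots) in 10 lists, with the number of genes, for the 3 todPGCLC comparisons; the dashed line is the chromosome 11 median. Genes that nearly all cells use gather around the dashed line, with 24, 27 and 31 of 32 above 0, while HoxB genes, keratins and transcription factors spread widely.

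Clustered tissue-specific genes were spread widely. Of the HoxB cluster, which patterns the body axis, 5 of 10 genes passed, with medians of 0.22, -0.90 and -2.47. Hoxb4 had 0.748 and 1.04 CPM in tcESC, 1.43 and 1.84 in tc;Sf1ESC, 7.43 and 7.70 in SCLC and 1.34 and 1.58 in todPGCLC, and rose in SCLC (3.12 ± 0.25 SE against tcESC, adjusted p = 5.5e-06, edgeR). Hoxb1, Hoxb7 and Hoxb13 were also higher in SCLC than in tcESC, but Hoxb7 met the count limit only through its SCLC counts and Hoxb1 only through todPGCLC, so no count over the cluster is drawn. Of 12 type I keratins, 7 passed, with medians of 1.61, 1.75 and -0.43. Krt19, of simple epithelia, had 1.34 and 1.47 CPM in tcESC, 0.193 and 0.181 in tc;Sf1ESC, 139 and 171 in SCLC and 31.9 and 33.3 in todPGCLC. Its rise in SCLC was 6.84 ± 0.15 SE against tcESC (log2 fold change, adjusted p = 7.1e-09, edgeR), and Krt23 was higher there too. Krt14 and Krt20 were also higher and Krt16 and Krt17 lower, but Krt14 would not meet the count limit without SCLC, nor Krt20 without SCLC or without todPGCLC, nor Krt16 without any 1 of the other 3 groups. In todPGCLC Krt19 was thus between the ESC and SCLC levels, where the summed Sertoli and gonadal somatic markers were 20.8 and 24.5 CPM and visceral endoderm markers 12.5 and 9.34 CPM. The part of other cells in the Krt19 level was not tested.

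Of 10 transcription factors of the gonad, kidney and endoderm that were listed, 9 lie on chromosome 11, and all 9 passed, with medians of 3.30, 2.54 and 0.48. Sox9 and Meis1 were among those that rose in SCLC against tcESC, and Otx1 fell (edgeR), beside 24.4% of all genes higher and 18.2% lower. Meis1, a homeobox factor of many developing organs, had 0.472 and 0.424 CPM in tcESC, 0.617 and 1.45 in tc;Sf1ESC, 18.8 and 13.4 in SCLC and 6.28 and 6.33 in todPGCLC, which lay between the ESC and SCLC levels. Sox9, the Sertoli cell determinant, had at most 0.27 CPM in the ESC libraries, 7.77 and 4.47 in SCLC and 2.47 and 4.97 in todPGCLC, so that SCLC and todPGCLC overlapped. None of 11 chemokine genes passed the limit, and none was above 0.641 CPM in any library.

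The largest changes of chromosome 11 genes between the other 3 groups lay in windows spread along the chromosome. AI662270 and the overlapping pseudogene Gm11427 (window 9) rose together in tc;Sf1ESC against tcESC, with 6.03 ± 0.25 SE and 6.00 ± 0.28 SE (log2 fold changes, adjusted p = 5.3e-06 and 9.7e-06, edgeR). They lie on the same strand and overlap, so their reads cannot be fully told apart. AI662270 had 0.433 and 0.554 CPM in tcESC, 32.6 and 32.5 in tc;Sf1ESC, 12.4 and 17.9 in SCLC and 17.0 and 18.1 in todPGCLC. Only the tcESC group was low. Ebf1 (window 5), a transcription factor known from B cells and fat cells, had 3.15 and 3.88 CPM in tcESC, 44.4 and 44.8 in tc;Sf1ESC, 0.830 and 0.687 in SCLC and 5.37 and 2.37 in todPGCLC. Its rise in tc;Sf1ESC was 3.67 ± 0.30 SE (log2 fold change, adjusted p = 7.7e-05, edgeR).

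In SCLC against tcESC, Car4 (window 9), a membrane-bound carbonic anhydrase, had 1 and 1 counts in tcESC, 0 and 0 in tc;Sf1ESC, 2054 and 3413 in SCLC and 1172 and 2031 in todPGCLC. Car4 was thus near the floor in all ESC libraries, and its higher todPGCLC level (76.5 CPM) came just below its lower SCLC level (77.5 CPM). Gm5431 (window 5) had no count in the ESC libraries, 500 and 414 in SCLC and 3 and 18 in todPGCLC. It met the count limit only through SCLC. Against the floor of 3 counts it was at least 153-fold higher in SCLC than in tcESC, given as a value without a test. The genes that fell most in SCLC were Pirt (window 7) and the antisense RNAs Myadml2os and Notumos (window 13). Notumos, whose name places it antisense to the Wnt inhibitor Notum, had 148 and 154 counts in tcESC, 508 and 530 in tc;Sf1ESC, 1 and 3 in SCLC and 53 and 66 in todPGCLC. Krt42, a type I keratin outside the list above, fell most against tc;Sf1ESC besides these 2 (log2 fold change -6.86 ± 0.34 SE, adjusted p = 3.2e-07, edgeR).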

How the data were processed

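RNA of 8 libraries (4 groups of 2) was sequenced as strand-specific, paired-end polyA libraries. The submitters' processing notes name Trim Galore, STAR 2.4.0, Picard, HTSeq and DESeq2 with build GRCm38. The authors deposited whole-number counts per gene, not normalized, and each library held 25411033 to 30680191 of them on genes. Reads not assigned to a single gene made up 35.6 to 41.6% of a library and stayed out of all totals. Replicates of a group are described as biological duplicates, and p-values measure the spread between these samples only, which may be technical. Replicate counts differed by more than sampling noise in every group (chi-square per degree of freedom 1.42 to 30.0), so all 8 were kept.

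Genes with a mean count above 10 were kept (16707 of 46078), placed with GENCODE M21, and divided into 10 Mb windows by start. Log2 CPM used a prior count of 2. Tests were edgeR 4.0.16 quasi-likelihood fits over all 4 groups (R 4.3.3, limma 3.58.1) with TMM scaling, Benjamini-Hochberg adjustment over all genes, and a call at adjusted p under 0.05 and fold change over 2. The code was tested on simulated data. Chromosome 11, its windows and the gene lists were chosen with earlier results of these data known, so the todPGCLC comparisons are a description: the fit calls genes in them too, but these calls support nothing. In each window the gene with the largest smallest-of-3 departure on each side was named, where its mean was at least 1 CPM and both todPGCLC libraries lay outside the other 6. Genes of the lists were named too, the 10 largest departures were given in every library, and the genes that changed most in the other comparisons, with Krt42, were chosen after their values were seen.

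Alternatives were DESeq2 1.42.0, other scaling, centring, filters, prior count and window sizes, the replicate block, and fits without each library. Promoter sequences were found for 971 of 1344 genes, too few for a comparison over the members to be reported, so base composition is given for the printed ones alone. The values of 1 listed gene are not reported here.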

Additional observations from a re-analysis of the deposited data

How the results depend on the processing

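All 13 window medians and both the chromosome 11 and the steady-gene medians for todPGCLC stayed above 0 under the scalings, filters, centrings and prior counts tried, with these exceptions for windows: the 5 Mb windows, where 96.0% of medians were above 0 against tcESC, and 92.3% of the 10 Mb windows without tc;Sf1ESC replicate 1 (lowest -0.03), tc;Sf1ESC replicate 2 (-0.00) or todPGCLC replicate 2 (-0.02). Among the other groups, the median stayed at or below 0 for tc;Sf1ESC and for SCLC against tcESC, and that of SCLC against tc;Sf1ESC lay on either side of 0. With a mean count above 100, the chromosome 11 medians were 0.48, 0.47 and 0.53 for todPGCLC against tcESC, tc;Sf1ESC and SCLC, -0.0213 for tc;Sf1ESC against tcESC and -0.0459 for SCLC against tcESC. With every gene of at least 1 count they were 0.34, 0.34, 0.38, 0 and 0, where many genes of few counts enter. With protein-coding genes only they were 0.49, 0.47 and 0.53, -0.0169 for tc;Sf1ESC against tcESC and 0.0124 for SCLC against tc;Sf1ESC. Centred on the genes off chromosome 11, the todPGCLC medians were 0.52, 0.50 and 0.55. By the TMM fold change, tc;Sf1ESC against tcESC gave -0.0210. Steady genes with a range under 1 (656 genes) gave 0.40 against tcESC and 0.49 against SCLC, and those with a mean count above 100 (242 genes) gave 0.47 against tcESC and 0.45 against tc;Sf1ESC.

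With each library left out in turn, the todPGCLC medians ran from 0.47 to 0.49 against tcESC, 0.45 to 0.46 against tc;Sf1ESC and 0.49 to 0.53 against SCLC, and the others from -0.0285 to -0.0150 (tc;Sf1ESC against tcESC), -0.0800 to -0.0438 (SCLC against tcESC) and -0.0446 to 0.00136 (SCLC against tc;Sf1ESC). The steady-gene medians ran from 0.36 to 0.44, 0.40 to 0.45 and 0.45 to 0.50. The numbers of called genes ran from 369 to 440, 404 to 455 and 505 to 560 for todPGCLC against tcESC, tc;Sf1ESC and SCLC, and from 111 to 181, 524 to 565 and 520 to 556 for tc;Sf1ESC against tcESC, SCLC against tcESC and SCLC against tc;Sf1ESC. The lone library left in a group was assumed to vary like the other groups.

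Same-numbered replicates shared only a number, since their deviations from the group means correlated by -0.03 to 0.06. With the replicate number as a block, 429, 443, 536, 160, 561 and 559 genes were called in these 6 comparisons, against 432, 443, 541, 162, 560 and 556 without the block. DESeq2 called 399, 423, 512, 151, 542 and 537.

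No departure of a named gene changed sign. With a prior count of 0.25 the departures of Dock2, Fat2, Lhx1, Slc4a1 and Btbd17 grew, most for Fat2 against tc;Sf1ESC (8.42 in place of 6.33). Lhx1 against SCLC stood at 3.81 without todPGCLC replicate 1 and at 2.11 without replicate 2, and Slc4a1 against SCLC at 4.19 without SCLC replicate 1 and at 2.43 without replicate 2. Slc13a5 against tc;Sf1ESC stood at -0.89 without todPGCLC replicate 2, in place of -1.40. The cause of these differences was not tested. With 2 libraries a group, the spread of a single gene is poorly known, and genes near the floor of 3 counts are limited by depth.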
